A study of Homo sapiens with 12 samples.

Results

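The clustered protocadherins are 53 protein-coding genes in 3 neighbouring clusters on chromosome 5q31, and they were taken from the 58051 genes of the count files by symbol: 15 genes of the alpha cluster (PCDHA1 to PCDHA13, PCDHAC1 and PCDHAC2), 16 of the beta cluster (PCDHB1 to PCDHB16) and 22 of the gamma cluster (12 of subtype A, 7 of subtype B, and PCDHGC3, PCDHGC4 and PCDHGC5). The family was selected on the measured CPM of Cal27 AfaR (afatinib-resistant) against Cal27 parental cells, where a stretch of it was raised, so the members' values in that comparison are a description, no p-value of a member is given there, and their count of calls is printed only beside its background. Pseudogenes, the antisense gene PCDHB1-AS1 and PCDHA14, which is annotated as a pseudogene, were not members.

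RNA with poly(A) selection came from FaDu, a line of hypopharyngeal squamous cell carcinoma, and Cal27, a line of tongue squamous cell carcinoma, both labelled with a WT genotype. Each line was studied as parental cells, as afatinib-resistant cells (AfaR) and as erlotinib-resistant cells (ErlR), with 2 biological replicates in each of the 6 groups and 12 libraries in all. Erlotinib inhibits EGFR, and afatinib irreversibly blocks EGFR and other ERBB receptors. Resistance was established by stepwise escalation of the drug, and by the study's methods the cells were kept under drug and then cultured without it for a day before use. Each resistant model is 1 selected population, so the replicates measure the spread between cultures of that population and not between independent selections. The gene counts summed to between 16334937 and 23399259 reads in a library, and all 12 libraries carry the same batch label.

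Clustered protocadherins are cadherin-like adhesion proteins of the cell surface, best known from neurons, where each cell uses its own combination of isoforms and like combinations recognize one another. In the alpha and gamma clusters, each gene has its own large first exon with its own promoter, which is spliced to constant exons shared by the whole cluster, so the members differ in the extracellular part and share a cytoplasmic tail. Beta genes have no constant exons. Promoters are chosen through DNA methylation, CTCF and cohesin, and most of them carry a conserved element with CGCT at its core. The C-type genes at the ends of the alpha and gamma clusters are regulated differently from the rest and tend to be used more constitutively.

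On GRCh38 the alpha cluster spanned chr5:140786136-141012347, the beta cluster chr5:141051135-141249365 and the gamma cluster chr5:141330571-141512981, all on the plus strand. Every alpha member contained the same 2866 exon bases and every gamma member the same 2181, while no exon base was common to all beta members. Exon bases not overlapped by another gene made up between 36.9% and 78.7% of an alpha member, between 75.1% and 100% of a beta member and between 35.6% and 72.4% of a gamma member, and levels of different genes are compared below only per kilobase of these unshared bases. PCDHA13 had 0 counts in all 12 libraries although its constant exons are also those of PCDHA4, which reached 84 counts in a library. Some members resemble each other in their own exons too. Of all stretches of 150 bases in the unshared exons, 16.2% of those of PCDHB8 and 10.5% of those of PCDHB13 also occurred in another member, mostly each other, as did 14.8% for PCDHGB4 and 13.6% for PCDHGB5. For PCDHB10 the share was 12.8%, mostly shared with PCDHB9, and 11 members in all were above 5%, among them PCDHB2 (9.09%), PCDHGB1 (8.77%), PCDHB9 (7.20%) and PCDHGB2 (6.77%). No such stretch was found in PCDHB7, PCDHA4, PCDHA11, PCDHA12, PCDHAC2 or PCDHGC3. For the members above 5%, reads could be split between similar copies and their separate levels are less certain.

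The promoter elements of members with contrasting levels are shown so that raised and silent genes can be compared base by base. They were read from RefSeq sequences of GRCh38.p14, which held 250 bases before and 50 after the start of 47 of the 53 members. Each window holds 42 bases of the plus strand around CGCT, in capitals. In the beta cluster, the windows of PCDHB3 and PCDHB15, which stayed at 7 counts or fewer in every library, and of PCDHB2, which was detected in every group, stand before those of 6 genes that were high in Cal27 AfaR cells.
PCDHB2, chr5:141094538-141094579: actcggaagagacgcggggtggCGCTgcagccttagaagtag
PCDHB3, chr5:141100387-141100428: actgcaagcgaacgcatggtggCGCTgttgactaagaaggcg
PCDHB15, chr5:141245308-141245349: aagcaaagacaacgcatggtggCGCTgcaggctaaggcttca
PCDHB7, chr5:141172560-141172601: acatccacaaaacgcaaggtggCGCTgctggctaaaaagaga
PCDHB8, chr5:141177771-141177812: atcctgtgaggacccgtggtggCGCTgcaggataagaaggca
PCDHB10, chr5:141192293-141192334: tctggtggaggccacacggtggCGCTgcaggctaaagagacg
PCDHB12, chr5:141208637-141208678: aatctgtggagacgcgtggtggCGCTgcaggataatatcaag
PCDHB13, chr5:141213859-141213900: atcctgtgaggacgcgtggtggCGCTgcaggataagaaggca
PCDHB14, chr5:141223257-141223298: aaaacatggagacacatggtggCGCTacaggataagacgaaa
All 9 windows carried the run GGTGGCGCT, and 13 of the 14 beta promoters held it, PCDHB1 being the exception, against 0.524% of the promoters of 27305 genes on either strand. The element was thus present near the start of silent and raised beta genes alike, lying before the start in all of these windows but that of PCDHB8, where CGCT begins just after it. In the alpha cluster, PCDHA1 had at most 2 counts in a library, and PCDHA4, PCDHA11 and PCDHA12 are the genes of FaDu AfaR cells described below.
PCDHA1, chr5:140786080-140786121: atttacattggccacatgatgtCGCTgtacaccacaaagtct
PCDHA4, chr5:140806973-140807014: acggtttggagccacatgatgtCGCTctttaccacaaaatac
PCDHA11, chr5:140868877-140868918: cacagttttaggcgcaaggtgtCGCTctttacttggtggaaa
PCDHA12, chr5:140875238-140875279: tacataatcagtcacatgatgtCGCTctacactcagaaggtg
ATGATGTCGCT was found in 8 of 13 alpha promoters and in 8 of the 27305 promoters, so these 8 were its only carriers on either strand. PCDHA11 differs from it in the bases before CGCT and was not among them. In the gamma cluster, the 3 genes with the highest levels per kilobase in Cal27 AfaR cells were PCDHGC3, PCDHGB5 and PCDHGB2, shown with PCDHGA10.
PCDHGB2, chr5:141359915-141359956: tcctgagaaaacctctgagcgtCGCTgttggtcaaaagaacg
PCDHGB5, chr5:141397857-141397898: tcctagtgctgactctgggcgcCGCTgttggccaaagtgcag
PCDHGA10, chr5:141412925-141412966: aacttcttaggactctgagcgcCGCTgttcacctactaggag
PCDHGC3, chr5:141475874-141475915: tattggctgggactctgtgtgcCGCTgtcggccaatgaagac
GCGNCGCTGTT, in which N is any base, was found in 10 of 20 gamma promoters and in 25 of all promoters, or 0.0916% on either strand. These longer runs were composed after the sequences had been read, and each contains the shorter CGCT.

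CGCT alone is frequent, being found on either strand in 69.4% of all promoters. On the strand of the gene and between 100 and 30 bases before the start, it was found in 43 of the 47 members, or 91.5%, against 21.7% of all promoters. The promoter of PCDHA9 held no CGCT in its 300 bases. The 4 C-type promoters were rich in G and C, with between 59.0% and 66.0%, and lay close to the median of 58.3% of all genes, whereas the other 43 had between 32.3% and 51.3% with a median of 38.7%. The 250 bases before the start of PCDHB10, which was nearly silent in parental Cal27 cells, and of PCDHGC3, which was detected in all groups, show this contrast, again with CGCT in capitals.
PCDHB10, chr5:141192103-141192352: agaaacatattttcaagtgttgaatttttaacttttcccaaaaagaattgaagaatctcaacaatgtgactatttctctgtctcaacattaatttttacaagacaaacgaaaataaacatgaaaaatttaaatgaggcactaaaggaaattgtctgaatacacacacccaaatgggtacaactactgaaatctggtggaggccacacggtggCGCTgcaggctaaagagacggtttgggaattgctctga
PCDHGC3, chr5:141475716-141475965: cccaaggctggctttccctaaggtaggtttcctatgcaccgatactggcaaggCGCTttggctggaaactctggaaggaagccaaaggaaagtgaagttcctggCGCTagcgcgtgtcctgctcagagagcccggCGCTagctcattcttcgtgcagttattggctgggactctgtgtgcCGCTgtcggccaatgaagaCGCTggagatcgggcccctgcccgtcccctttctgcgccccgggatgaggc
PCDHB10 has a lone CGCT in this stretch and PCDHGC3 has several. Level and base composition did not go together in every member. PCDHAC1 (66.0% G and C) and PCDHGC4 (60.7%) had at most 3 and 9 counts in a library. PCDHB2 (45.3%) was detected in every group. A match is a feature of the sequence and says nothing of binding in these cells, which was not measured here.

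**Figure D1:**
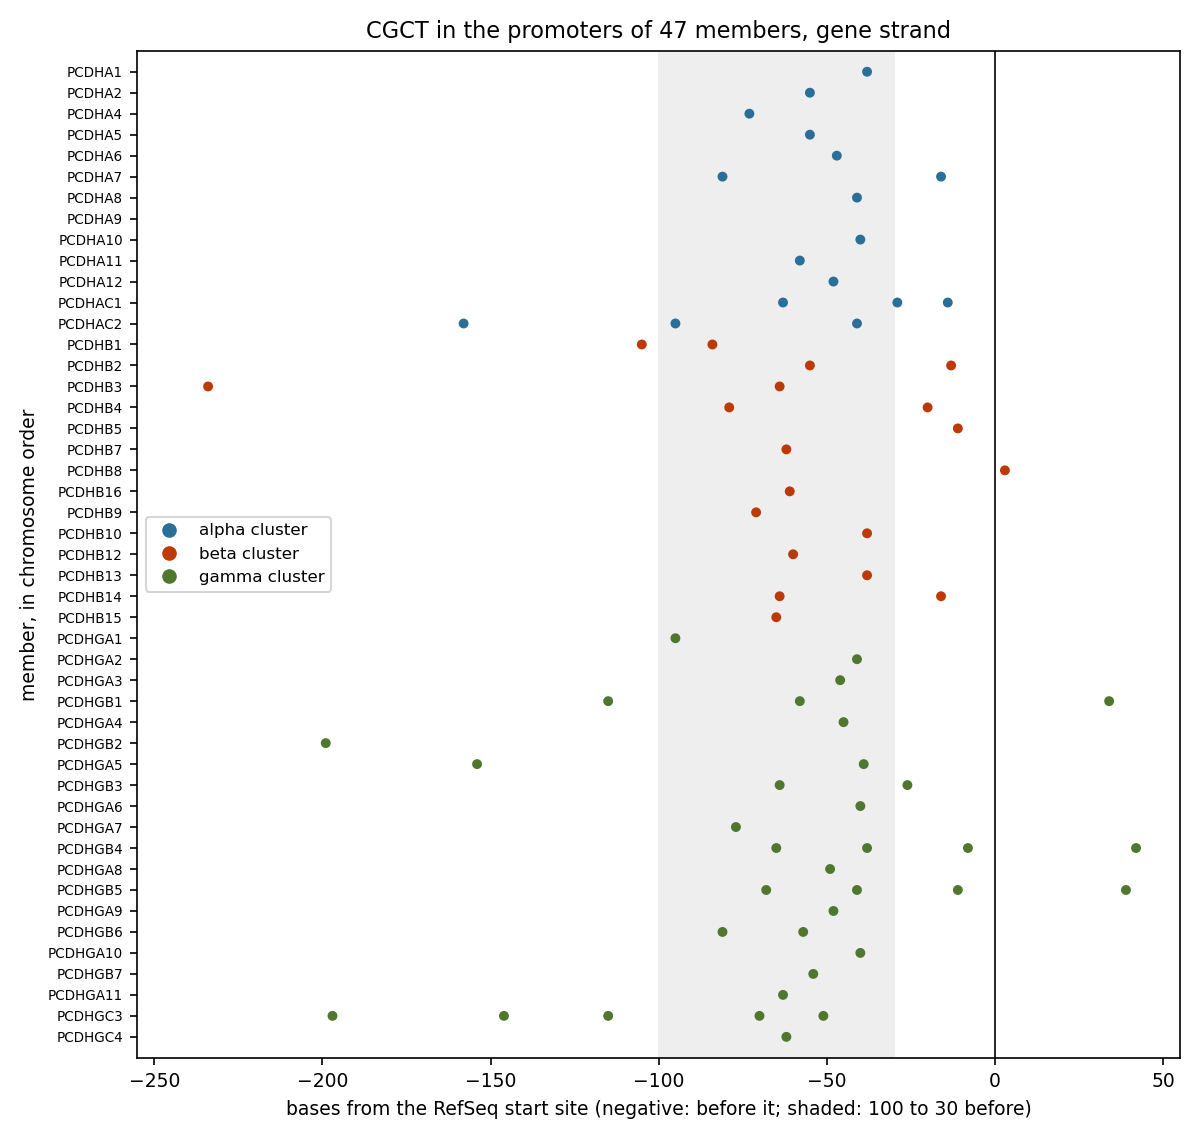
Position of every CGCT on the gene strand in the RefSeq promoters of 47 members, in bases from the start site, 1 row per member in chromosome order and coloured by cluster. The shaded band from 100 to 30 bases before the start holds a CGCT in 43 of the 47 members.

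Levels are given as CPM, the reads of a gene relative to the size of its library, scaled over all 12 libraries by TMM, which matches library sizes on genes assumed not to change. Where a group had 0 counts, a floor of 3 counts per library was used in its place. Summed over all 53 members, the family reached 29.4 ± 1.46 CPM in FaDu parental cells (SD, n = 2, here and below), 58.1 ± 0.635 in FaDu AfaR and 42.0 ± 0.980 in FaDu ErlR. In Cal27 the sums were 90.4 ± 20.2 in parental cells, 256 ± 48.2 in AfaR and 88.3 ± 1.63 in ErlR. The Cal27 AfaR libraries stood above all others and the FaDu parental libraries below all others. In a bulk sample, more cells that use a gene and more RNA per cell cannot be told apart. The number of members with at least 1 CPM in both libraries was 3, 7 and 4 in FaDu parental, AfaR and ErlR cells and 5, 14 and 5 in the Cal27 groups. A total of 17 members, 10 of them alpha, 5 beta and 2 gamma, had 3 or fewer counts in each of the 12 libraries.

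**Figure D2:**
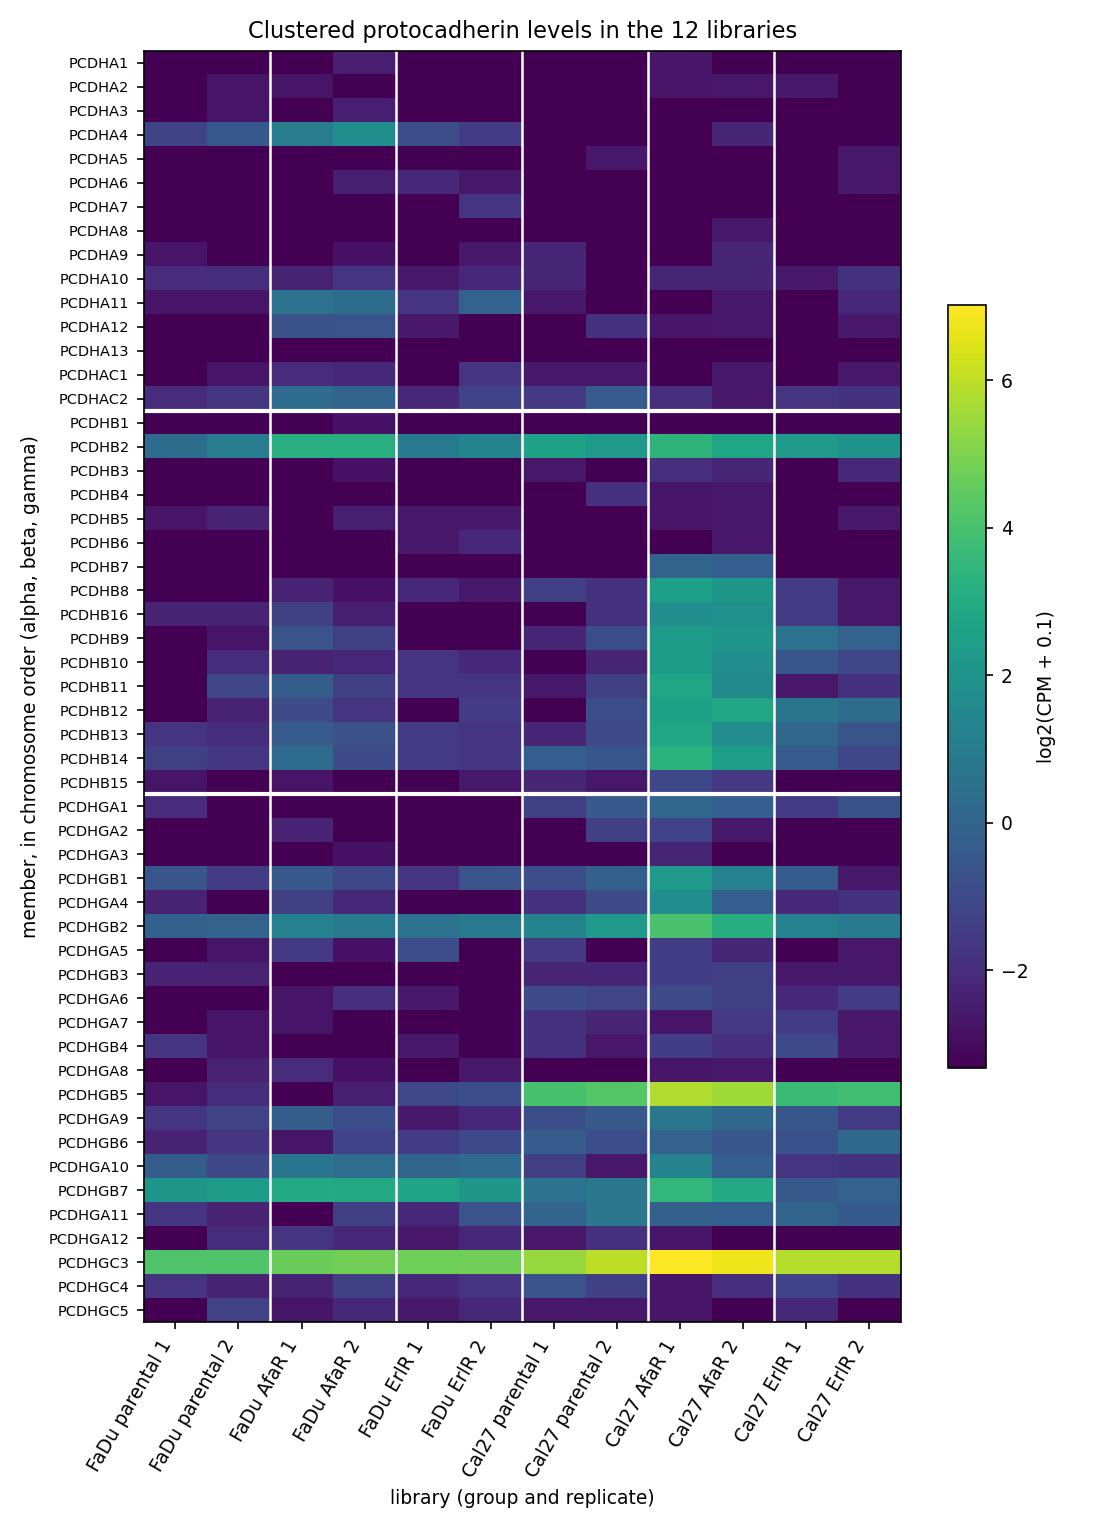
Level of each of the 53 members (rows, in chromosome order, white lines between the alpha, beta and gamma clusters) in each of the 12 libraries (columns), as log2 of CPM plus 0.1. The bright block from PCDHB7 to PCDHB14 appears in both Cal27 AfaR libraries, the row of PCDHGC3 is bright in all 12, and most alpha rows are dark throughout.

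PCDHGC3, a C-type gamma gene (ENSG00000240184), carried between 43.6% and 66.7% of the counts of the family in every library. Its level was 18.1 and 17.9 CPM in FaDu parental, 25.1 and 27.8 in FaDu AfaR, and 26.6 and 27.0 in FaDu ErlR libraries. In Cal27 it was 43.1 and 63.8 CPM in parental, 130 and 109 in AfaR, and 58.3 and 58.2 in ErlR libraries. Per kilobase of unshared exon, PCDHGC3 was the highest member of the gamma cluster in all 6 groups, at between 5.53 CPM per kilobase in FaDu parental and 36.7 in Cal27 AfaR. The next gene differed between the lines. In the FaDu groups it was PCDHGB7, at 1.66, 2.81 and 1.94 CPM per kilobase in parental, AfaR and ErlR cells. In the Cal27 groups it was PCDHGB5 (ENSG00000276547), at 6.66, 19.1 and 5.17. PCDHGB5 had at most 7 counts in any FaDu library and at least 206 in every Cal27 library. Of the other C-type genes, PCDHAC1 had at most 3 counts in a library, PCDHGC5 at most 6 and PCDHGC4 at most 9, while PCDHAC2 reached 23 in FaDu AfaR and stayed at 12 or fewer elsewhere.

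In the beta cluster PCDHB2 (ENSG00000112852) had the highest level per kilobase in all 6 groups, at 0.447, 2.53 and 0.591 CPM per kilobase in FaDu parental, AfaR and ErlR cells and 1.55, 2.46 and 1.21 in the Cal27 groups. In the alpha cluster, PCDHA11 led in FaDu AfaR and ErlR cells, at 0.380 and 0.155 CPM per kilobase, and PCDHAC2 led in FaDu parental cells and in the 3 Cal27 groups, at between 0.0344 and 0.146. The alpha levels outside FaDu AfaR therefore rested on a few reads per gene.

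The stretch that was high in Cal27 AfaR cells ran from PCDHB7 to PCDHB14, 9 neighbouring beta genes in the order PCDHB7, PCDHB8, PCDHB16, PCDHB9, PCDHB10, PCDHB11, PCDHB12, PCDHB13 and PCDHB14. Its limits were set after the values were seen. The summed level of these 9 genes was 1.34 and 2.68 CPM in the Cal27 parental libraries, 48.8 and 34.2 in AfaR and 5.68 and 3.60 in ErlR. Both AfaR libraries lay far above the rest, with a ratio of pooled CPM to parental cells of 20.8 (95% interval from 16.3 to 26.9). These intervals are exact Clopper-Pearson intervals on pooled counts and cover counting error only, not the spread between cultures.

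PCDHB10 had 0 and 2 counts in the parental and 89 and 56 in the AfaR libraries, and 9 and 6 in the ErlR libraries. Its ratio of AfaR to parental cells, 69.6, had an interval from 18.9 to 580, with 2 parental reads in all. PCDHB16 had 0 and 3 counts in the parental, 64 and 61 in the AfaR and 4 and 1 in the ErlR libraries. Both genes were at or under 3 counts in each parental library and well above every ErlR library in AfaR cells.

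PCDHB8 had 0.291 and 0.175 CPM in the parental, 5.61 and 4.29 in the AfaR and 0.255 and 0.0610 in the ErlR libraries. PCDHB12 (ENSG00000120328) had 0 and 0.466 CPM in the parental, 5.77 and 6.78 in the AfaR and 1.53 and 1.16 in the ErlR libraries. For PCDHB8 the ErlR libraries overlapped the parental ones, whereas PCDHB12 was higher in both resistant groups than in any parental library. Their ratios of AfaR to parental cells were 21.4 (10.6 to 50.2) and 26.9 (13.4 to 63.0).

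PCDHB7 was detected in no group but Cal27 AfaR, with 17 and 13 counts against 0 in each of the other 10 libraries, and its level was at least 4.80-fold higher than in parental cells when a floor of 3 counts per library is used for the latter. PCDHB9, PCDHB11, PCDHB13 and PCDHB14 had ratios of 15.9, 28.0, 19.5 and 11.2. The AfaR replicates of PCDHB11, PCDHB13 and PCDHB14 differed, with 6.74 and 2.90, 6.80 and 3.31, and 9.55 and 5.28 CPM, and the lower value was still above every parental and ErlR library of the gene. The genes beside the stretch were low. PCDHB6, on the near side of PCDHB7, had at most 2 counts in any library, and PCDHB15, the gene after PCDHB14, had 7 and 4 counts in AfaR against 2 and 1 in parental cells.

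PCDHB2, which lies before the stretch, had 6.11 and 4.78 CPM in Cal27 parental and 10.5 and 6.78 in Cal27 AfaR libraries, with a ratio of 1.60 (1.33 to 1.92). The 7 beta genes outside the stretch together had a ratio of 1.64 (1.37 to 1.97). In number, beta genes with at least 1 CPM in both libraries went from 1 of 16 in parental cells, PCDHB2, to 9 of 16 in AfaR cells, PCDHB2 and all genes of the stretch but PCDHB7.

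The gamma cluster was also higher in Cal27 AfaR cells, by a smaller factor. Its sum was 82.0 ± 19.9 CPM in parental and 205 ± 35.3 in AfaR cells, a ratio of 2.51 (2.40 to 2.62), of which PCDHGC3 itself had 2.24 (2.12 to 2.37). PCDHGB5 had 15.8 and 19.8 CPM in parental and 55.5 and 46.4 in AfaR libraries. PCDHGB2 had 2.44 and 4.78 CPM in parental and 16.6 and 8.52 in AfaR libraries. The groups did not overlap for either gene, and their ratios were 2.87 and 3.52. The ratios of PCDHGA10 (9.12), PCDHGB7 (6.19) and PCDHGB1 (5.41) were larger, from lower levels. Some gamma genes were not higher, since PCDHGA11 had 44 pooled counts in parental and 28 in AfaR cells, PCDHGC4 14 and 4, and PCDHGA6 13 and 13. The alpha cluster remained near the floor, with 27 pooled counts over its 15 genes in parental and 20 in AfaR cells, and its 3 highest genes per kilobase in AfaR cells, PCDHAC2, PCDHA12 and PCDHA2, had 4, 2 and 2 of these.

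**Figure D3:**
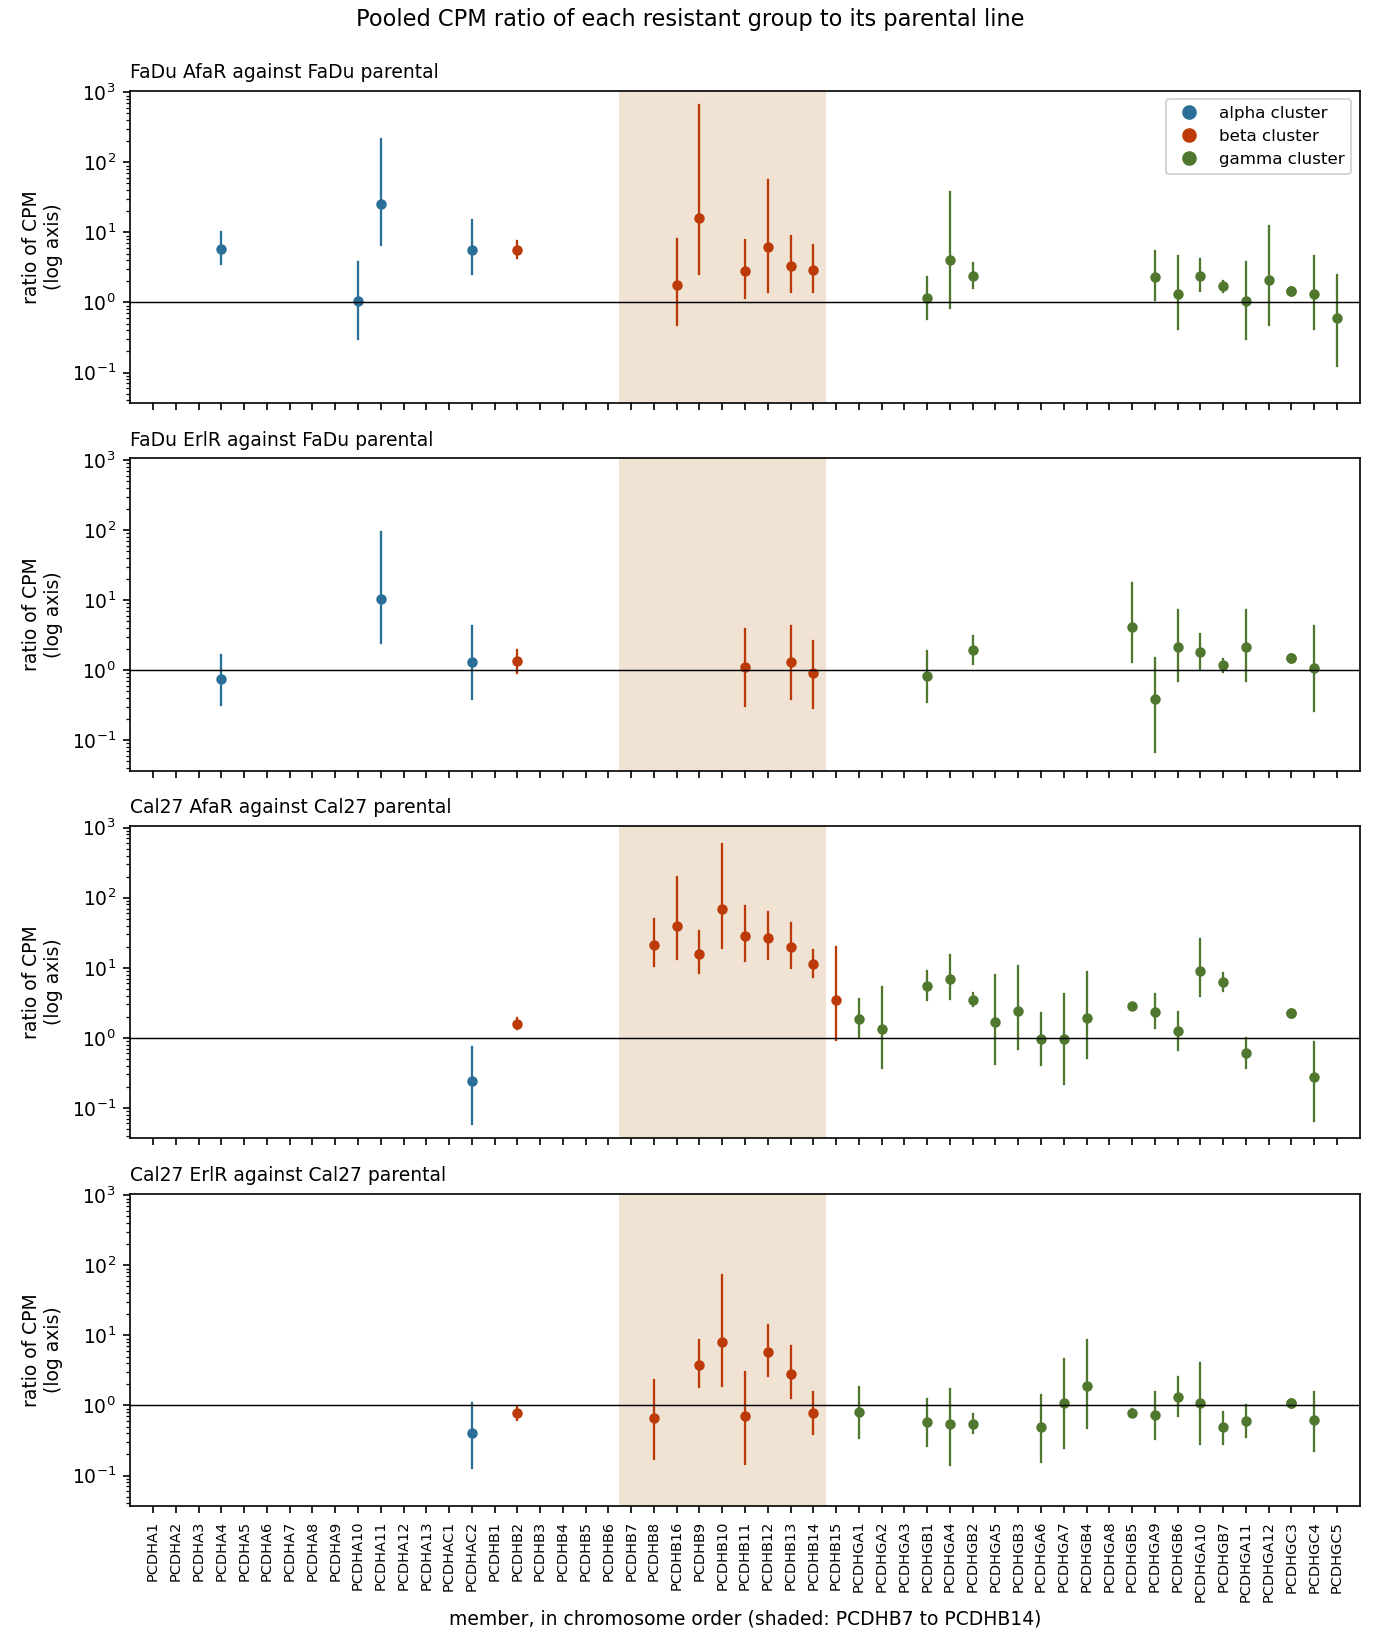
Ratio of pooled CPM in each resistant group to parental cells of its line for members in chromosome order, on a log axis, with exact 95% counting intervals; members with fewer than 10 counts in total or 0 counts in a group are not drawn. In Cal27 AfaR the points of the shaded stretch from PCDHB8 to PCDHB14 lie between 11.2 and 69.6, while PCDHB2 lies at 1.60 and PCDHAC2 below 1, and in Cal27 ErlR 4 genes of the stretch, PCDHB9, PCDHB10, PCDHB12 and PCDHB13, have intervals above 1.

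A gene was called where edgeR's adjusted p-value (Benjamini-Hochberg) lay under 0.05 with a log2 fold change above 1 or below -1. In this comparison edgeR called 16 members higher (9 beta, 7 gamma) and 0 lower, where 11.5% of all tested genes were called higher and 8.06% lower. Since the family was chosen for this contrast, and since 10 of the 21 members tested in Cal27 passed the filter on low counts only through the AfaR libraries, nothing is read from that count.

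**Figure D4:**
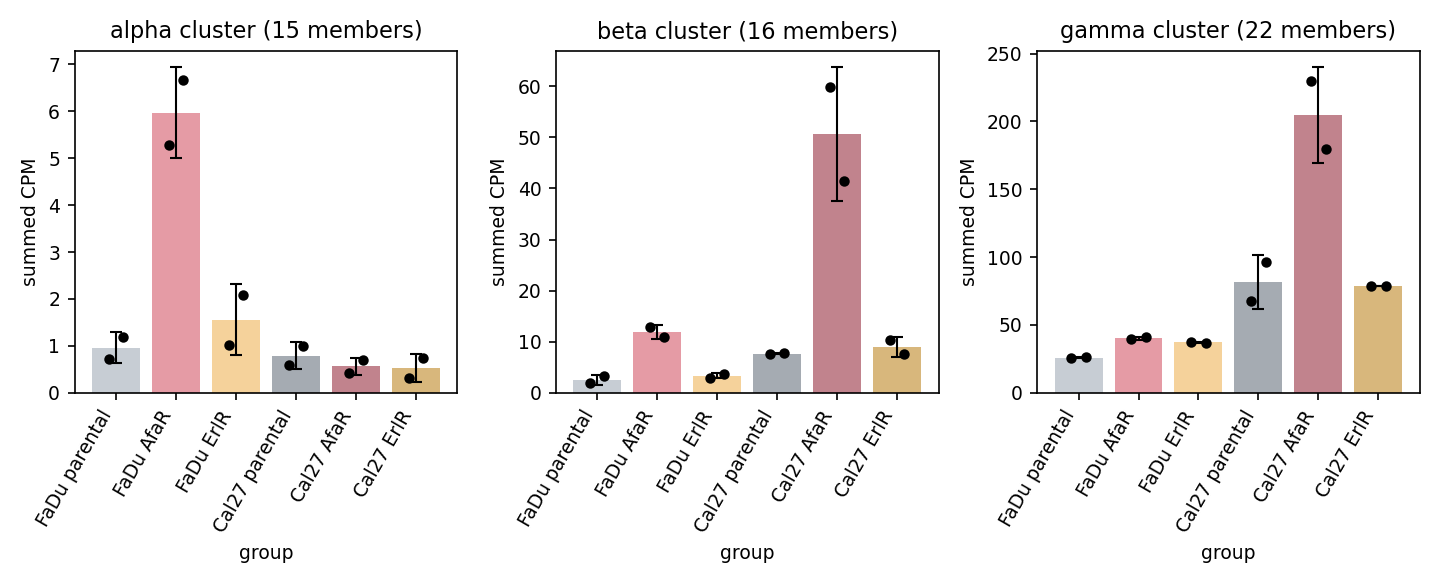
Summed CPM of the alpha, beta and gamma clusters in each group, with a point for each of the 2 libraries and their mean; each panel has its own linear axis from 0. The beta and gamma sums are highest in Cal27 AfaR, at 50.7 and 205 CPM, and the alpha sum is highest in FaDu AfaR, at 5.97 CPM.

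FaDu AfaR cells had higher alpha and beta sums than FaDu parental cells. The family was chosen on the Cal27 AfaR values and not on these, though with earlier results of these data known. Whether the AfaR difference was the same in both lines was not tested, since the family was chosen on the Cal27 one. The sum of the alpha cluster was 0.728 and 1.19 CPM in FaDu parental, 5.28 and 6.66 in AfaR and 1.02 and 2.09 in ErlR libraries, a ratio of AfaR to parental cells of 6.32 (4.49 to 9.13). The beta sum was 1.84 and 3.22 CPM in parental, 12.9 and 10.9 in AfaR and 2.94 and 3.66 in ErlR libraries, a ratio of 4.72. In both clusters the AfaR libraries lay above all parental and ErlR libraries. The gamma sum went from 25.9 ± 0.152 to 40.2 ± 1.05 CPM, a ratio of 1.55. It was also higher in ErlR cells, with 37.3 and 36.9 CPM against 25.8 and 26.0 in the parental libraries. The ratio of ErlR to parental cells was 1.43 (1.32 to 1.56).

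PCDHB2 rose in FaDu AfaR cells, from 1.16 and 1.97 CPM to 8.87 and 8.84. In edgeR's quasi-likelihood test, the log2 fold change was 2.48 ± 0.32 (SE) with an adjusted p of 0.00319, and it kept its call under all 13 alternatives run, with values between 2.13 and 2.90. This is the beta gene that lies outside the stretch raised in Cal27. Within that stretch PCDHB13 had 4 and 3 counts in parental and 14 and 12 in AfaR libraries, with an adjusted p of 0.0922 in edgeR, and the other 8 genes of the stretch did not pass the filter in FaDu. The 9 genes together had 0.582 and 1.14 CPM in FaDu parental and 3.97 and 1.93 in AfaR libraries, a ratio of 3.36 (2.29 to 5.07). PCDHB9, PCDHB11, PCDHB12, PCDHB13 and PCDHB14 each had a counting interval above 1, from between 1 and 10 pooled parental counts per gene. The share of all genes with such an interval was not computed. For PCDHB11 the libraries overlapped, with 0 and 0.364 CPM in parental and 0.727 and 0.288 in AfaR cells. The ratio of the other beta genes, 5.42, was that of PCDHB2, which had 398 of their 403 pooled AfaR counts and 62 of their 66 parental counts.

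PCDHA4 (ENSG00000204967) had 7 and 12 counts in FaDu parental, 41 and 84 in AfaR, and 7 and 4 in ErlR libraries. PCDHA11 had 1 and 1, 29 and 28, and 3 and 13 counts in the same groups. PCDHA12 had 0 and 0, 10 and 13, and 1 and 0 counts. For each of these genes the AfaR libraries lay above all parental and ErlR libraries. PCDHAC2, the C-type alpha gene, had 3 and 4 counts in parental, 23 and 22 in AfaR and 2 and 5 in ErlR libraries, also without overlap. In Cal27 AfaR, by contrast, the counts of these 4 genes were 0 and 2, 0 and 1, 1 and 1, and 3 and 1, so the alpha genes that were raised in the FaDu model were not detected above the floor in either Cal27 AfaR library.

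In edgeR's test the log2 fold changes of FaDu AfaR against parental cells were 2.48 ± 0.50 for PCDHA4 (adjusted p = 0.0134), 4.48 ± 0.86 for PCDHA11 (adjusted p = 0.0116) and 2.46 ± 0.62 for PCDHAC2 (adjusted p = 0.0274). PCDHA12 was called as well (adjusted p = 0.0206 in edgeR), and its level was at least 3.40-fold higher than in parental cells at a floor of 3 counts per library. With PCDHB2 this made 5 members called higher and 0 lower, where 6.48% of all tested genes were called higher and 0.954% lower. All 4 alpha genes passed the filter only through the AfaR libraries, so a member had to be high there to be tested. Their calls rested on few parental reads. Without FaDu parental replicate 1, PCDHB2 was the only one of the 5 still called. Without FaDu parental replicate 2, FaDu AfaR replicate 1 or FaDu AfaR replicate 2, the counts of called members were 2, 3 and 2.

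PCDHGC3 also rose in FaDu AfaR cells, by 0.54 ± 0.13 on the log2 scale (adjusted p = 0.0264 in edgeR), which is under the fold limit, and 10.4% of all tested genes were higher at that adjusted p alone. PCDHGB2 went from 0.825 and 0.883 CPM to 2.23 and 1.85, with a log2 fold change of 1.23 (adjusted p = 0.0532 in edgeR). PCDHGB7 and PCDHGA10 had log2 fold changes of 0.74 and 1.26 and adjusted p-values of 0.0780 and 0.0977 in edgeR. Of the 5 gamma genes tested, none was called.

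**Figure D5:**
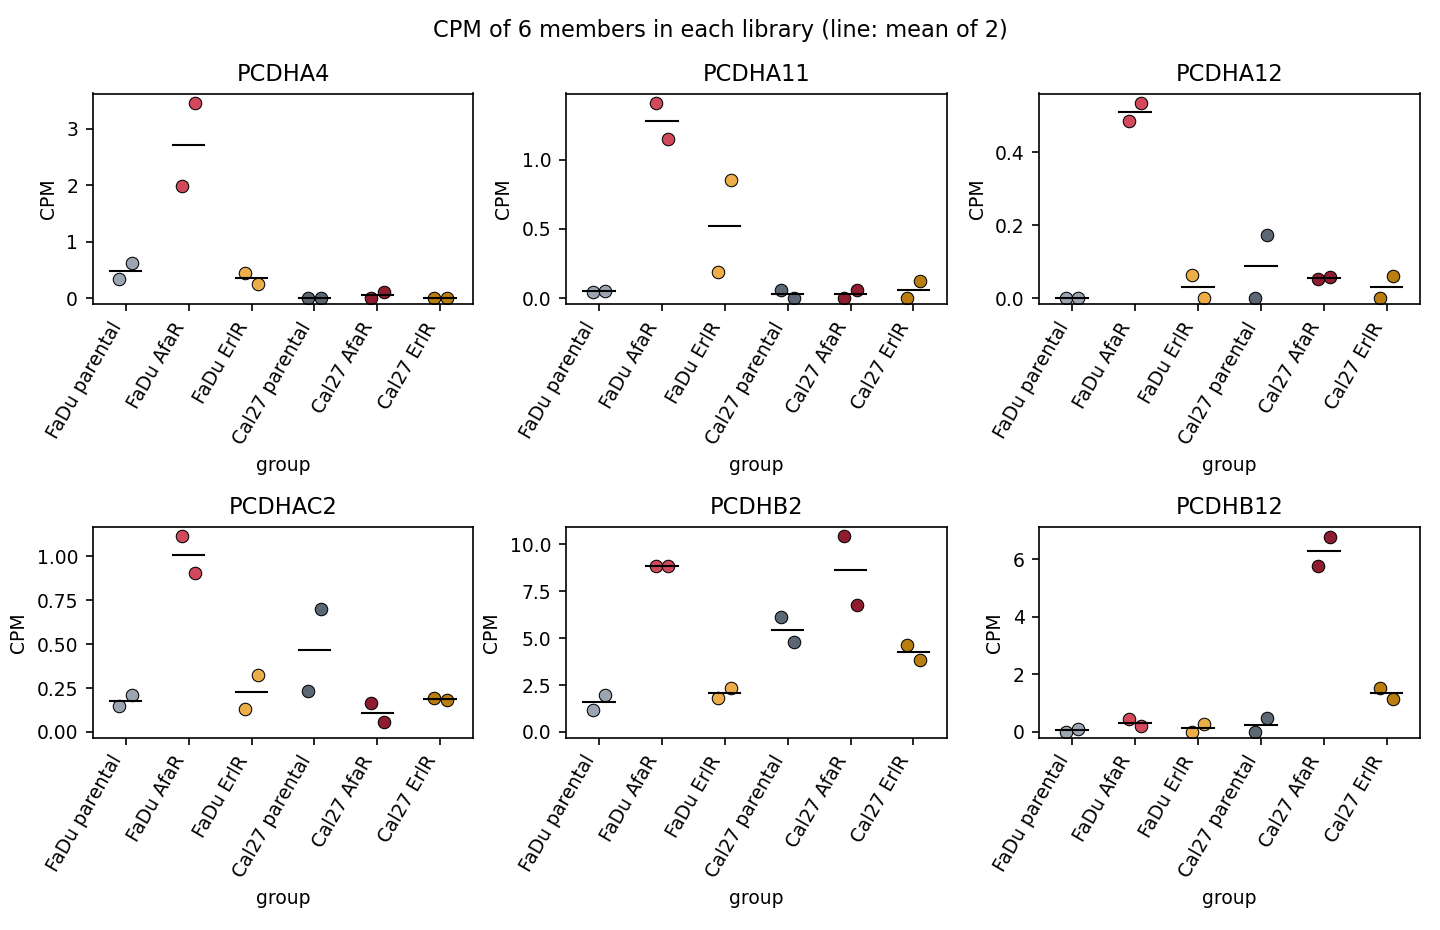
CPM of PCDHA4, PCDHA11, PCDHA12, PCDHAC2, PCDHB2 and PCDHB12 in each library of the 6 groups, with a line at the mean of 2 and a linear axis per gene. The 4 alpha genes are raised in FaDu AfaR and not in Cal27 AfaR, PCDHB2 reaches 8.85 CPM in FaDu AfaR and 8.63 in Cal27 AfaR, and PCDHB12 is highest in Cal27 AfaR.

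In FaDu ErlR cells edgeR called 0 members, where 1.54% of all tested genes were called higher and 0.504% lower. DESeq2 also called 0, but it left 6 of the 11 members, PCDHA11 among them, without an adjusted p. At an unadjusted p under 0.05, 3 of the 11 members tested were higher and 0 lower in edgeR, where 11.9% of all tested genes were higher and 9.36% lower. They were PCDHGC3, with a log2 fold change of 0.57 ± 0.13 and an adjusted p of 0.0504, PCDHA11, with 3.20 and 0.103, and PCDHGB2, with 0.93 and 0.213. PCDHGC3 had 18.1 and 17.9 CPM in parental and 26.6 and 27.0 in ErlR libraries, which did not overlap. When libraries were scaled on the ERCC spike-ins, which shifted the median of all genes by 0.49 on the log2 scale in this comparison, these 3 genes were called, where 10.0% of all tested genes were called higher.

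The difference between the FaDu models was tested directly. PCDHA4, PCDHA12, PCDHAC2 and PCDHB2 were called higher in AfaR than in ErlR cells and 0 members lower, where 4.45% of all tested genes were called higher and 1.5% lower. PCDHA4, PCDHA12 and PCDHAC2 passed the filter only through the AfaR libraries, so of these 4 calls only that of PCDHB2 could have gone either way. The log2 differences in edgeR were 2.91 ± 0.54 for PCDHA4 (adjusted p = 0.00991) and 2.09 ± 0.32 for PCDHB2 (adjusted p = 0.00496). Those of PCDHA12 and PCDHAC2 had adjusted p-values of 0.0496 and 0.0486 in edgeR. PCDHA11 did not pass, at 1.28 with an adjusted p of 0.181 in edgeR, and its ErlR libraries differed, with 3 and 13 counts. PCDHGC3 did not differ detectably between the models, at -0.03 with an adjusted p of 0.903. Leaving out any 1 of the 6 FaDu libraries brought the count of called members from 4 to 1 or 2. It was 1 without FaDu AfaR replicate 2 or FaDu ErlR replicate 2, and 2 without FaDu parental replicate 1, FaDu parental replicate 2, FaDu AfaR replicate 1 or FaDu ErlR replicate 1.

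In Cal27 ErlR cells, which share their parental libraries with the AfaR comparison, PCDHB12 was called higher and 0 members were called lower, where 3.56% of all tested genes were called higher and 9.92% lower. The counts of PCDHB12 were 0 and 8 in parental and 24 and 19 in ErlR libraries, and its log2 fold change in edgeR was 2.47 ± 0.77 (adjusted p = 0.0407). That call was lost without Cal27 parental replicate 1, Cal27 AfaR replicate 1, Cal27 AfaR replicate 2 or Cal27 ErlR replicate 1, where 0 members were called, whereas 3 members were called without Cal27 parental replicate 2 and 2 without Cal27 ErlR replicate 2. PCDHB9 and PCDHB10 of the same stretch came close to the threshold, with log2 fold changes of 1.86 ± 0.62 and 2.84 ± 0.95 and adjusted p-values of 0.0503 and 0.0515 in edgeR.

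Within the stretch the ErlR values were uneven. PCDHB9 had 2 and 8 counts in parental and 21 and 14 in ErlR libraries, PCDHB10 had 0 and 2 against 9 and 6, and PCDHB13 had 2 and 7 against 15 and 9. These 3 genes and PCDHB12 were higher in each ErlR library than in each parental library. The share of all tested genes that separated in this way was not computed, so nothing is read from that number. PCDHB14, in contrast, had 13 and 10 counts in parental and 11 and 6 in ErlR libraries, PCDHB8 had 5 and 3 against 4 and 1, and PCDHB11 had 1 and 5 against 1 and 3. Over the 9 genes the ratio of ErlR to parental cells was 2.30 (1.72 to 3.10), and over the other beta genes it was 0.768 (0.613 to 0.960). The stretch was bounded on AfaR values set against these same parental libraries. Low parental counts raise the AfaR and ErlR ratios alike, so the ErlR values of the stretch, PCDHB12 included, are not independent of that choice. PCDHB2 itself did not change detectably, with a log2 fold change of -0.38 and an adjusted p of 0.377 in edgeR.

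Of the 11 gamma genes tested in Cal27 ErlR cells, 3 had a positive log2 fold change and none was called. PCDHGC3 had a log2 fold change of 0.10 (adjusted p = 0.732 in edgeR), PCDHGB5 -0.39 (0.132), PCDHGB2 -0.88 (0.171) and PCDHGB7 -1.06 (0.0837). The gamma sum was 82.0 ± 19.9 CPM in parental and 78.8 ± 0.00705 in ErlR cells. Without PCDHGC3 it was 24.8 and 32.3 CPM in the parental and 20.6 and 20.6 in the ErlR libraries. The ratio of that smaller sum was 0.722 (0.653 to 0.797).

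Whether the ErlR difference from parental cells was the same in both lines was tested as an interaction over all 12 libraries, for 24 members. It was called for PCDHGB5 alone, at 2.36 ± 0.70 on the log2 scale (FaDu minus Cal27, adjusted p = 0.0343 in edgeR), where 7.51% of all tested genes were called in that direction and 3.36% in the other. PCDHGB5 had 1 and 3 counts in FaDu parental and 6 and 7 in FaDu ErlR libraries, but 272 and 339 in Cal27 parental and 206 and 237 in Cal27 ErlR libraries. On the FaDu side the difference thus rested on 4 parental and 13 ErlR reads. The next gene was PCDHGB2, at 1.80 with an adjusted p of 0.0625 in edgeR. The call of PCDHGB5 was lost, with 0 members called, without FaDu parental replicate 1, FaDu ErlR replicate 1, FaDu ErlR replicate 2, Cal27 parental replicate 2 or Cal27 ErlR replicate 1, and PCDHGB2 was called beside it without Cal27 parental replicate 1, Cal27 AfaR replicate 1 or Cal27 AfaR replicate 2.

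Genes around and between the clusters were compared to see how far along the chromosome such values extended. Of 38 protein-coding genes within 1000000 bases of the clusters, 31 were tested. In Cal27 AfaR cells 1 was called higher, the ligand gene NRG2 (log2 fold change 2.62), and 4 lower, PCDH1 (-2.96), the EGFR ligand gene HBEGF (-2.51), CYSTM1 (-1.47) and TMCO6 (-1.25), and the median over the 31 was 0.02. Over all tested genes, 11.5% were called higher in Cal27 AfaR and 8.06% lower. In the other comparisons the called genes were PCDH1, lower in FaDu AfaR (-1.09), and SPRY4, a feedback inhibitor of receptor signalling, higher in Cal27 ErlR (2.67), and FaDu ErlR had 0 called. The shares over all tested genes were 0.954% lower in FaDu AfaR, 3.56% higher in Cal27 ErlR, and 1.54% higher and 0.504% lower in FaDu ErlR. TAF7, a subunit of the general factor TFIID, which lies between the beta and gamma clusters, had a log2 fold change of 0.42 in Cal27 AfaR cells and was not called. PCDHA14 had 0 counts in every library, and the other 5 pseudogenes of the clusters, among them PCDHB17P, which lies between PCDHB6 and PCDHB7, had 3 or fewer counts in each library and were not tested. A noncoding gene just before PCDHGA1 (ENSG00000272070) had 9 and 6 counts in Cal27 parental and 32 and 13 in Cal27 AfaR libraries.

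Protocadherins outside the clusters, which are solitary genes of the same superfamily, were set beside the members. Of 12 such genes, 6 were tested in FaDu and 4 in Cal27, and in each AfaR model 3 were called higher and 1 lower. The shares over all tested genes were 6.48% higher and 0.954% lower in FaDu AfaR and 11.5% and 8.06% in Cal27 AfaR. PCDH7, PCDH10 and PCDH18 rose in FaDu AfaR cells, with log2 fold changes of 1.38, 1.77 and 2.08 and adjusted p-values of 0.0115, 0.0140 and 0.0159 in edgeR. The same 3 genes rose in Cal27 AfaR cells, by 3.28, 3.17 and 5.94, and PCDH1 fell in both. In FaDu ErlR cells PCDH7 alone was called, at 1.22, and in Cal27 ErlR cells 0 of the 4 were.

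Of 11 genes of CTCF and the cohesin complex, which loop protocadherin promoters to their enhancers, 0 were called in FaDu AfaR, FaDu ErlR or Cal27 AfaR cells, and STAG1 was called higher in Cal27 ErlR (1.12). Of 17 genes of DNA methylation and silencing, which include the DNA methyltransferases, SMCHD1 and SETDB1, 0 were called in any of the 4 comparisons. The shares over all tested genes, for these lists and the markers below, were 6.48% higher and 0.954% lower in FaDu AfaR. They were 1.54% and 0.504% in FaDu ErlR, 11.5% and 8.06% in Cal27 AfaR, and 3.56% and 9.92% in Cal27 ErlR. Among 20 genes of processing and cytoplasmic partners, CYFIP2, a subunit of the WAVE actin regulator, rose in FaDu AfaR (1.15) and Cal27 AfaR (2.65). PTK2B, the kinase PYK2 that binds the protocadherin tail, fell in Cal27 AfaR (-1.30) and Cal27 ErlR (-1.14), and the receptor gene RET fell in Cal27 ErlR (-1.44).

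Markers of other cell types were set beside these values. All 9 squamous epithelial markers, such as KRT5 and TP63, were called lower in Cal27 AfaR cells, with a summed level between 771 and 948 CPM against between 4105 and 5406 in parental and between 5452 and 5480 in ErlR cells. In FaDu their sum lay between 5924 and 11594 CPM and 0 of the 9 were called in either model. Of 8 mesenchymal markers, 6 were called higher in Cal27 AfaR cells, among them VIM (log2 fold change 5.74), ZEB1 (5.37) and ZEB2 (4.12), with sums between 4578 and 4932 CPM against between 812 and 879 in parental and between 405 and 472 in ErlR cells. In FaDu AfaR 2 were called higher and 1 lower, with sums between 157 and 166 CPM against between 101 and 112 in parental cells. Fibroblast markers had sums between 315 and 326 CPM in Cal27 AfaR against between 30.2 and 41.7 in parental cells, with 3 of 5 tested called higher, and 0 of 3 tested were called in FaDu AfaR.

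Neuronal markers, the cell type best known for clustered protocadherins, differed less than these in Cal27 AfaR cells. Their summed level was between 67.8 and 76.9 CPM in Cal27 AfaR against between 45.6 and 46.9 in parental cells, and between 41.6 and 42.3 in FaDu AfaR against between 35.2 and 36.1 in parental cells. MAP2 (2.72), TUBB3 (1.71) and NCAM1 (1.41) were called higher in Cal27 AfaR, and MAP2 and NCAM1 in FaDu AfaR (1.36 and 1.51), of 10 and 13 tested. The median log2 fold change over the tested neuronal markers was -0.27 in Cal27 AfaR and -0.05 in FaDu AfaR. In FaDu ErlR cells their sum was between 56.8 and 66.2 CPM, the median was 0.97 and 1 marker was called higher. In Cal27 ErlR cells the sum was between 30.2 and 35.5 CPM, the median was -0.52 and 2 markers were called lower. No neuronal marker was at 0 counts in both libraries of a group. Of the 6 immune markers CD68 was called lower in both Cal27 models, and the 5 endothelial markers had CDH5 lower in Cal27 ErlR, with 0 called elsewhere. The immune markers summed to between 11.8 and 20.2 CPM over the 12 libraries, with CD3E at 0 counts in both libraries of 5 groups, and the endothelial markers to between 2.68 and 37.4 CPM. In Cal27 AfaR the squamous, mesenchymal and fibroblast markers moved beside the protocadherins, whereas few markers were called in FaDu AfaR. Their part in the result was not tested.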

How the data were processed

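By the study's methods and the submitters' processing notes, paired-end reads of 12 libraries (poly(A) RNA with ERCC spike-ins) were trimmed with Trimmomatic 0.36, aligned to GRCh38 with STAR 2.5.2b and counted with featureCounts of Subread 1.5.2; strand and multimapping settings are not given in the sources used here. The authors deposited raw counts per Ensembl gene, and normalized counts, a signal equal to the raw count divided by 1 factor per library. The deposited tables of the authors' own comparisons also hold fold changes and p-values, which were not used. Counts without the 92 spike-in rows were compared by edgeR 4.0.16 under R 4.3.3 (TMM, filterByExpr, quasi-likelihood F-test, Benjamini-Hochberg over all genes tested), 1 fit per line over 6 libraries with 3 residual degrees of freedom, and 1 fit over 12 libraries for the interaction. The scripts were tested on simulated data. Alternatives included DESeq2 1.42.0. Symbols and exons came from GENCODE 44, in which 56948 of 58051 identifiers were found. The genes named are the highest members per kilobase, the C-type members and those called; the stretch from PCDHB7 to PCDHB14, its neighbours, further gamma genes and the promoter runs were added after the values were seen. The members and lists were chosen with earlier results of these data known.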

Additional observations from a re-analysis of the deposited data

Results flagged for a closer look

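The difference between ErlR and parental cells was called as unequal in the 2 lines for PCDHGB5 by the interaction term over all 12 libraries, with a log2 value of 2.36 (FaDu minus Cal27). Its level was 0.102 ± 0.0759 CPM in FaDu parental and 0.420 ± 0.0523 in FaDu ErlR cells, but 17.8 ± 2.78 in Cal27 parental and 13.8 ± 0.934 in Cal27 ErlR cells (SD, n = 2). It was 1 of 24 members tested, where 7.51% of all tested genes were called in that direction, and it rested on 4 and 13 reads in FaDu parental and ErlR cells. The call was lost without any 1 of 5 libraries, FaDu parental replicate 1, FaDu ErlR replicate 1 or 2, Cal27 parental replicate 2 or Cal27 ErlR replicate 1.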

How the results depend on the processing

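Called members are counts at the limits of the report. FaDu AfaR against parental (5) gave 3 with DESeq2, which left 4 of the 11 members without an adjusted p, 2 with at least 10 counts in every library, and 1 to 5 without 1 library. FaDu ErlR (0) gave 3 with ERCC scaling and 1 without a filter. FaDu AfaR against ErlR (4) gave 2 with DESeq2, 1 with at least 10 counts, and 2 with only the 4 libraries compared. Here too DESeq2 left 4 of the 11 members without an adjusted p, among them PCDHA12 and PCDHAC2, which edgeR called. Cal27 ErlR (1) gave 2 with DESeq2, 0 with upper-quartile scaling, 3 with ERCC scaling, 3 without a filter, 0 with at least 10 counts, 0 with only the 4 libraries compared, and 0 to 3 without 1 library. Cal27 AfaR (16) gave 4 with at least 10 counts in every library, which tests fewer genes. At the limits of the report 11.5% of all tested genes were called higher in Cal27 AfaR and 8.06% lower. Nothing is read from these counts, since the family was chosen for this contrast. The interaction (1) gave 2 with DESeq2, 3 with ERCC scaling, 2 without a filter, 0 with at least 10 counts, and 0 to 2 without 1 library. Where the alternative itself does not show the cause, the cause was not tested. ERCC scaling shifted the median log2 fold change of all genes by 0.18 for FaDu AfaR, by 0.49 for FaDu ErlR, by -0.29 between the FaDu models and by 0.01 for Cal27 AfaR. Of all genes called higher or lower it put 37.0% higher in FaDu AfaR against ErlR, where TMM gave 74.8%, 96.1% against 75.4% in FaDu ErlR, and 93.8% against 69.1% in the interaction. The beta sum was above parental, and in AfaR the gamma sum too, with TMM, raw library size, ERCC scaling and the authors' normalized counts. In ErlR the beta sum was above parental for the means alone. The TMM gamma sums of FaDu ErlR, 37.3 and 36.9 CPM, lay above 25.8 and 26.0 in parental cells. Those of Cal27 ErlR, 78.8 and 78.8 CPM, lay between the parental values of 67.9 and 96.1. The TMM beta sums were 10.3 and 7.63 CPM against 7.62 and 7.69 in Cal27, and 2.94 and 3.66 against 1.84 and 3.22 in FaDu. The authors' tables listed 20 and 9 of the 53 members for Cal27 AfaR and ErlR, and 9 and 5 for FaDu AfaR and ErlR. Of the values of single members, 0 called ones changed sign.

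Replicate numbers were not treated as pairs in the main fits, and the labels do not say whether they pair the samples. The deviations of same-numbered libraries from their group means correlated at between -0.173 and 0.105 over 16240 genes. These weak correlations showed no pairing, but they could not tell whether the cultures had been handled in pairs. With the replicate number as a block, 2 members in place of 4 were called between the FaDu models. Against parental cells 5 were called in FaDu AfaR, 1 in Cal27 ErlR and 0 in FaDu ErlR, and the interaction had 1. The 2 libraries per group and the few reads of most members limit what these tests can show.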
